A study of Mus musculus with 2 samples.

Results

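The subject is a group of 6 genes for secreted inhibitors with whey acidic protein (WAP) domains, Wfdc2, Wfdc18, Wfdc12, Wfdc1, Wfdc15b and Slpi, in epithelial cells of the mouse oviduct. They are 6 of 27998 genes in the adult table, 6 of 53573 in the P4 table and 6 of the 26897 genes that both tables hold. The 6 genes were chosen by their measured levels in the clusters of these same 2 libraries, so their levels and fold changes are given as a description, with no test. One library came from C57BL/6 adults at estrus and the other from C57BL/6 mice at P4 (taken as postnatal day 4). For both ages the cells were released enzymatically, sorted with Epcam and CD45 antibodies, and sequenced with 10x Chromium 3' V2 chemistry. Nothing in the labels says how many animals were pooled, and with 1 library per age, age and library cannot be told apart.

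The adult table held 406 distinct cells with 1401641 unique molecular identifiers (UMI, each marking 1 captured RNA molecule), and the P4 table held 263 cells with 2123202 UMI. The median depth was 3232 UMI per adult cell and 7585 per P4 cell, so shares of cells with a UMI are not comparable between the ages without thinning. The authors' clusters were used as deposited. Adult clusters 1 (183 cells) and 3 (37 cells) were multiciliated-like, with a fixed list of 15 cilium genes summing to 148.2 and 105.0 UMI per 10000. Adult clusters 0 (130 cells) and 4 (31 cells) were secretory-like, with 9 secretory markers summing to 92.6 and 351.5 per 10000 and cilium genes at 2.96 and 5.40. Adult cluster 5 (25 cells) is called by number too. In it, 7 cells had 10 or more UMI of 8 smooth muscle genes, which summed to 146.0 per 10000 there and to 2.04 in the other 18 cells. P4 clusters 0 (168 cells) and 1 (95 cells), also called by number, had secretory markers at 8.35 and 10.7 and cilium genes at 9.67 and 2.61 per 10000. Epcam, the epithelial adhesion protein used in the sort, lay between 3.66 and 7.20 per 10000 in all 7 clusters. Ptprc, which encodes CD45, had 0 UMI in both libraries.

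WAP domains are small folds held together by disulfide bonds between cysteines, and many of the proteins that carry them block serine proteases or kill bacteria. They are secreted by mucosal epithelia, where they limit damage by proteases of leukocytes and of the epithelium itself. In the female tract they belong to the fluid in which gametes and embryos are held. Wfdc2 (also called HE4) is a broadly expressed epithelial member and is used as an ovarian cancer marker in women. Slpi is the secretory leukocyte protease inhibitor, which blocks neutrophil elastase and cathepsin G. Wfdc18 (extracellular proteinase inhibitor) was described in the mammary gland, Wfdc1 (ps20) in the prostate stroma, and Wfdc12 and Wfdc15b are small members with antibacterial activity.

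The coding sequence of the part of each domain that the family shares is printed below, because it shows what the 6 genes have in common apart from their levels. Each run is 42 bases of coding exon and encodes 14 residues that match the pattern cysteine, any 2 residues, aspartate or asparagine, any 2 residues, cysteine, any 5 residues, then 2 adjacent cysteines. Capitals mark the 4 cysteine codons. All runs are 5′ to 3′ on the coding strand of GRCm38 (mm10).
Wfdc2 core 1: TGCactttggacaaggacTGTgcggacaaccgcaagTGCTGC
Wfdc2 core 2: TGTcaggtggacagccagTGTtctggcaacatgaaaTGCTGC
Wfdc18: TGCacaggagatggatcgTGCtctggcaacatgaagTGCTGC
Wfdc12: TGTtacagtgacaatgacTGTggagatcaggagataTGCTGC
Wfdc15b: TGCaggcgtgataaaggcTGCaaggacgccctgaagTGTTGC
Wfdc1: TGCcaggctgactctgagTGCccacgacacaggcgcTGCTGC
Slpi core 1: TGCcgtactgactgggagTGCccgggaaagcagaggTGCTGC
Slpi core 2: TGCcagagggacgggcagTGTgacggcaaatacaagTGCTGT
There were 8 such cores in the 6 genes: 2 in Wfdc2 and in Slpi, and 1 in each of the other 4. The Wfdc2 cores lay at chr2:164563373-164563414 (exon 2) and chr2:164565851-164565892 (exon 4) on the plus strand. The Wfdc18 core lay at chr11:83709916-83709957 (exon 2, plus strand) and the Wfdc1 core at chr8:119679367-119679408 (exon 2, plus strand). On the minus strand of chromosome 2 were the cores of Wfdc12 (chr2:164190189-164190230, exon 2), Wfdc15b (chr2:164215165-164215206, exon 3) and Slpi (chr2:164355503-164355544, exon 2, and chr2:164354916-164354957, exon 3). The closest residues were those of Wfdc2 core 2 and Wfdc18, with 10 of 14 residues and 29 of 42 bases identical. Over whole proteins, the same pair had the highest identity, 36 residues or 48.6% of the shorter protein, and Wfdc18 with Wfdc15b had the lowest, 28.4%. Wfdc12 and Wfdc15b, which were high in the same adult cluster, shared 6 of 14 core residues. The pattern fixes the 4 cysteines, so at least 4 residues match in any pair of cores, and the lowest count was 5.

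Outside the cores the proteins differed in size. Wfdc18, Wfdc15b and Wfdc12 were short, with 74, 80 and 85 residues, of which 8, 10 and 8 were cysteines. Slpi had 131 residues and 17 cysteines, Wfdc2 174 and 18, and Wfdc1 211 and 13. The genes lay on 3 chromosomes: Wfdc2 at chr2:164562413-164568510, Wfdc12 at chr2:164189231-164190608, Wfdc15b at chr2:164214454-164221660 and Slpi at chr2:164354070-164389095, with Wfdc18 at chr11:83709015-83711348 and Wfdc1 at chr8:119666365-119688222. Wfdc12 is overlapped on the other strand by the antisense gene A730032A03Rik, which had 0 UMI at both ages, and Wfdc1 by Gm32352, which had 0 UMI at P4. Whether counting used strand is not given in the sources used here.

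Levels are pooled UMI of the cells of a cluster per 10000 UMI, with exact 95% Poisson intervals in brackets that cover counting error only. In this chemistry each molecule gives 1 tag at its 3' end, so levels of different genes were compared without dividing by transcript length.

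Wfdc2 was the main WAP transcript at P4. Its level was 8.62 [8.15 to 9.11] in P4 cluster 0 and 19.6 [18.5 to 20.7] in P4 cluster 1, with a UMI in 95.2% and 100% of cells. In the adult it was 1.81 [1.46 to 2.22] in cluster 0, 1.13 [0.876 to 1.44] in cluster 1, 1.14 [0.621 to 1.91] in cluster 3 and 1.64 [0.785 to 3.01] in cluster 4, so the intervals of these 4 clusters overlapped. Adult cluster 5 stood between the ages at 7.50 [5.98 to 9.28], and its 18 cells low in smooth muscle transcripts reached 14.8 [11.7 to 18.4], inside the range spanned by the P4 clusters. The order from high to low was thus P4 cluster 1, P4 cluster 0 and adult cluster 5, whose intervals overlapped, then the other 4 adult clusters. Per cell, the lowest value in P4 cluster 1 was 3.61 per 10000, the median 18.3 and the highest 44.8. In adult cluster 0 the median cell had none and the highest had 27.2, so single adult cells overlapped the P4 range. With every cell thinned to 1000 UMI (cells with fewer left out, 84 adult and 0 P4), Wfdc2 was seen in 66.5% of P4 cells and 13.7% of adult cells.

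Wfdc18 had the opposite distribution. Its level was 69.6 [67.3 to 71.9] in adult cluster 0 and 127 [118 to 136] in adult cluster 4, with a UMI in 93.8% and 96.8% of cells. Adult cluster 5 had 33.5 [30.2 to 37.1], cluster 1 had 6.68 [6.04 to 7.38] and cluster 3 had 0.974 [0.503 to 1.70]. At P4 it was 0.575 [0.459 to 0.712] in cluster 0 and 0.121 [0.0521 to 0.238] in cluster 1. No 2 of these 7 clusters had overlapping intervals apart from adult cluster 3 and P4 cluster 0. The 7 clusters therefore ordered as adult 4, 0, 5, 1, 3, then P4 0 and 1. A UMI was present in 15.8% and 18.9% of the multiciliated-like cells of clusters 1 and 3, at median depths of 3165 and 3657 UMI. Ovgp1, the oviduct glycoprotein that marks secretory cells, was at 282, 58.7, 38.5, 6.16 and 24.6 per 10000 in adult clusters 4, 0, 5, 1 and 3, and at 1.38 and 3.77 in P4 clusters 0 and 1. Adult cluster 3 thus had Ovgp1 with little Wfdc18. The number of Wfdc18 UMI per Ovgp1 UMI was 1.19 [1.13 to 1.25] in adult cluster 0, 0.449 [0.412 to 0.489] in adult cluster 4, and 0.032 [0.0137 to 0.0640] in P4 cluster 1. After thinning, 46.9% of adult cells and 2.28% of P4 cells had a Wfdc18 UMI.

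Wfdc12 lay mostly in adult cluster 3, which held 112 of the 117 adult UMI. The level there was 9.09 [7.49 to 10.9], with a UMI in 43.2% of cells. A single cell held 64 of the 112 UMI, and without it (an alternative added after seeing the data) the level was 4.17 [3.07 to 5.53]. Adult cluster 1 had 5 UMI in 2.73% of its cells, P4 clusters 0 and 1 had 1 UMI each, and adult clusters 0, 4 and 5 had 0 UMI, for which the upper limits were 0.0719, 0.604 and 0.329 per 10000. Wfdc15b was highest in the same cluster, at 15.3 [13.2 to 17.6] with a UMI in 45.9% of cells, but unlike Wfdc12 it was present in every cluster. Its level was 1.25 [0.961 to 1.59] in adult cluster 0, 0.625 [0.440 to 0.861] in cluster 1, 2.29 [1.25 to 3.84] in cluster 4 and 2.14 [1.37 to 3.19] in cluster 5. At P4 it was 1.56 [1.36 to 1.78] in cluster 0 and 1.15 [0.904 to 1.44] in cluster 1. Adult clusters 0, 4 and 5 and both P4 clusters thus had overlapping intervals, with adult cluster 1 below and adult cluster 3 above them.

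Wfdc1 went with the adult secretory-like clusters at a low level. It was 2.48 [2.06 to 2.95] in adult cluster 0 and 2.45 [1.37 to 4.05] in adult cluster 4, against 0.892 in cluster 5 (10 UMI), 0.169 in cluster 1 (10 UMI) and 1 UMI in cluster 3. Of the 10 UMI in cluster 5, 9 were in its 7 cells high in smooth muscle UMI (1.55 per 10000), and the part of smooth muscle RNA in this was not tested. At P4 it was 0.164 [0.105 to 0.244] in cluster 0 and 3 UMI in cluster 1. Slpi was rare throughout, with 30, 1, 7, 3 and 2 UMI in adult clusters 0, 1, 3, 4 and 5, and 2 and 1 in P4 clusters 0 and 1, in fewer than 10% of the cells of each. Of the 30 UMI in adult cluster 0, 25 came from 1 cell of 10730 UMI that also held 78 Wfdc18 UMI.

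**Figure D1:**
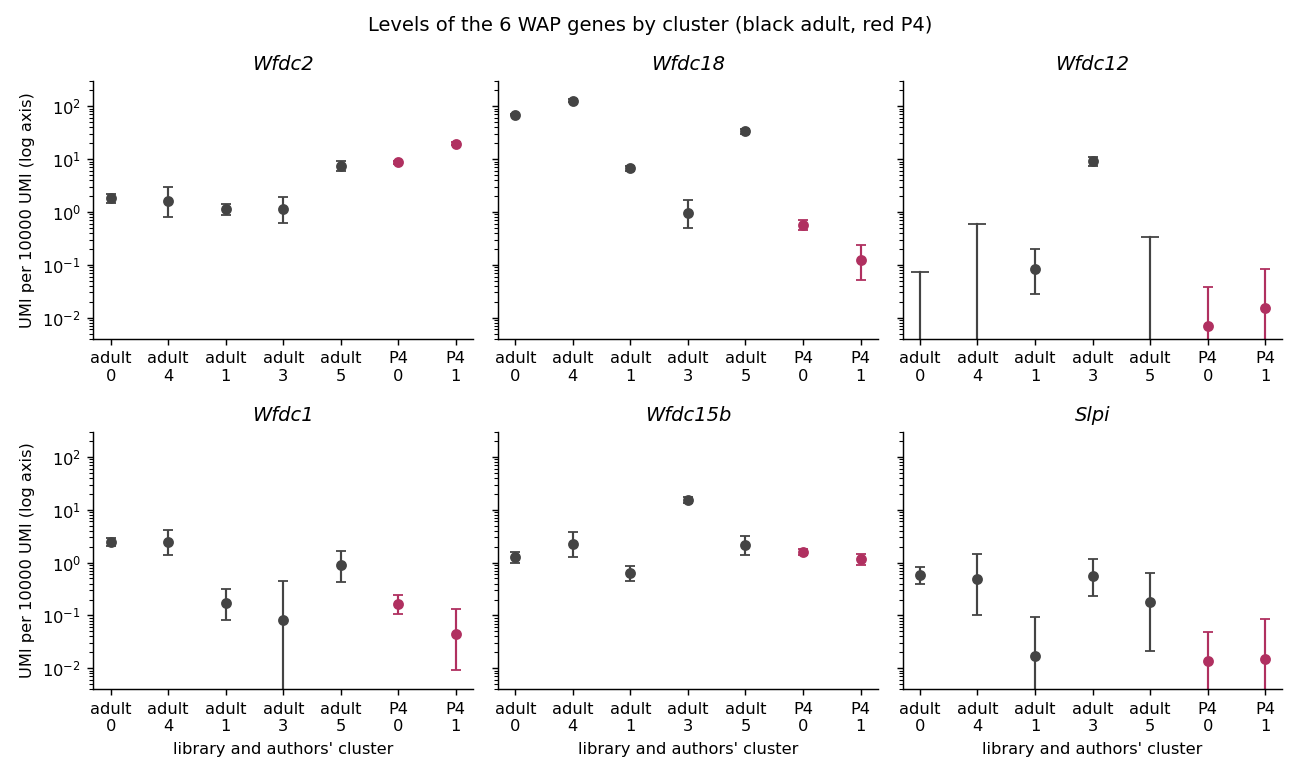
Each panel plots 1 gene: the horizontal axis gives the library and the authors' cluster, the vertical log axis the pooled UMI per 10000 UMI, points the level and bars its exact 95% Poisson interval, with a bar and no point for 0 UMI. Wfdc2 is highest in the 2 P4 clusters and adult cluster 5, Wfdc18 in adult clusters 0, 4 and 5, Wfdc12 and Wfdc15b in adult cluster 3, and Wfdc1 in adult clusters 0 and 4.

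The clusters also differed in the make-up of the summed UMI of the 6 genes. In the secretory-like adult clusters, Wfdc18 made up 91.9% [91.0 to 92.8] of that sum in cluster 0 and 94.9% [93.1 to 96.3] in cluster 4 (exact binomial intervals). At P4 Wfdc2 had the largest share, with 78.8% [76.7 to 80.8] in cluster 0 and 93.6% [92.2 to 94.8] in cluster 1. Wfdc15b was the next gene at P4, with 14.3% and 5.48%, and Wfdc18 had 5.26% and 0.577%. In multiciliated-like adult cluster 3 the sum was shared by Wfdc15b, with 56.3% [50.8 to 61.7], and Wfdc12, with 33.5% [28.5 to 38.9], while Wfdc18 had 3.59%. Without the cell with the most Wfdc12 and Wfdc15b, these shares were 60.8% for Wfdc15b and 23.0% for Wfdc12. Over all adult cells Wfdc18 made up 84.8% and Wfdc2 4.43%, and over all P4 cells Wfdc2 made up 85.7% and Wfdc18 3.08%. The summed level also differed: it was 75.7 and 134 per 10000 in adult clusters 0 and 4, 10.9 and 20.9 in P4 clusters 0 and 1, 27.1 in adult cluster 3 and 8.71 in adult cluster 1.

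**Figure D2:**
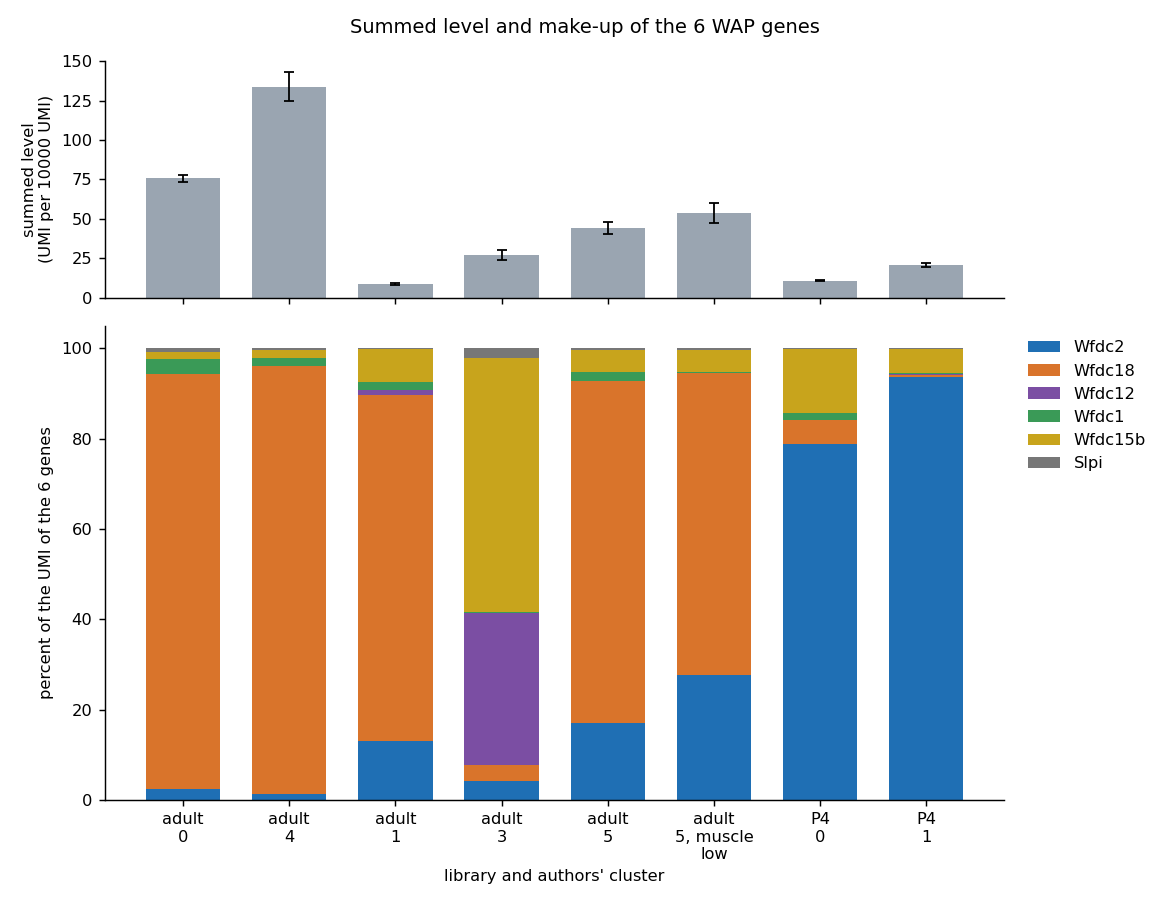
The upper bars give the summed level of the 6 genes (UMI per 10000 UMI, with exact 95% Poisson intervals) and the lower stacked bars the percent of those UMI from each gene, by library and cluster, with the 18 cells of adult cluster 5 low in smooth muscle UMI shown apart. Wfdc18 fills most of adult clusters 0 and 4, Wfdc15b and Wfdc12 most of adult cluster 3, and Wfdc2 most of both P4 clusters.

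Each cell was also assigned to the gene with the most UMI in it. This gave the same leading genes in adult clusters 0, 3 and 4 and at P4. Wfdc18 led in 118 of 130 cells of adult cluster 0 and 29 of 31 of cluster 4, and Wfdc2 led in 3 and 0 of them. Wfdc2 led in 142 of 168 cells of P4 cluster 0 and 93 of 95 of P4 cluster 1, and Wfdc18 in 5 and 0. In adult cluster 3 Wfdc15b led in 15 of 37 cells and Wfdc12 in 6. Adult cluster 1 had no leader of this kind, although Wfdc18 made up 76.7% of its summed UMI. Of its 183 cells, 105 had no UMI of any of the 6 genes, Wfdc2 led in 30, Wfdc18 in 22 and Wfdc15b in 11. In adult cluster 5 Wfdc18 made up 75.8% of the summed UMI and led in 11 of 25 cells, and Wfdc2 led in 9.

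Some cells held a UMI of both Wfdc2 and Wfdc18, but free RNA was not measured, so these shares are not read as expression of both genes by 1 cell. In P4 cluster 0, the 38 cells with a Wfdc18 UMI had Wfdc2 at 8.48 per 10000 and the 130 cells without one had 8.67, at median depths of 8044.5 and 7848.5 UMI. In adult cluster 0, 41 of the 122 cells with Wfdc18 also had Wfdc2. In P4 cluster 0, 8 cells had no Wfdc2 UMI, against 0 in cluster 1. Their median depth was 4235 UMI. They had 0 Ovgp1 UMI, but the 9 secretory markers summed to 13.8 per 10000 in them against 8.99 in the other 255 P4 cells. A list of 7 leukocyte genes summed to 14.3 against 0.719, and a list of 8 macrophage genes to 0 against 0.350. The part of depth and of leukocyte RNA in this was not tested. The 6 P4 cells with 30 or more UMI per 10000 of the cilium list had Wfdc2 at 7.22 per 10000 [5.62 to 9.12], against 8.72 [8.23 to 9.23] in the other 162 cells of cluster 0 and 19.6 in cluster 1. Their median depth was 18605.5 UMI against 7777.5 in those 162 cells.

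**Figure D3:**
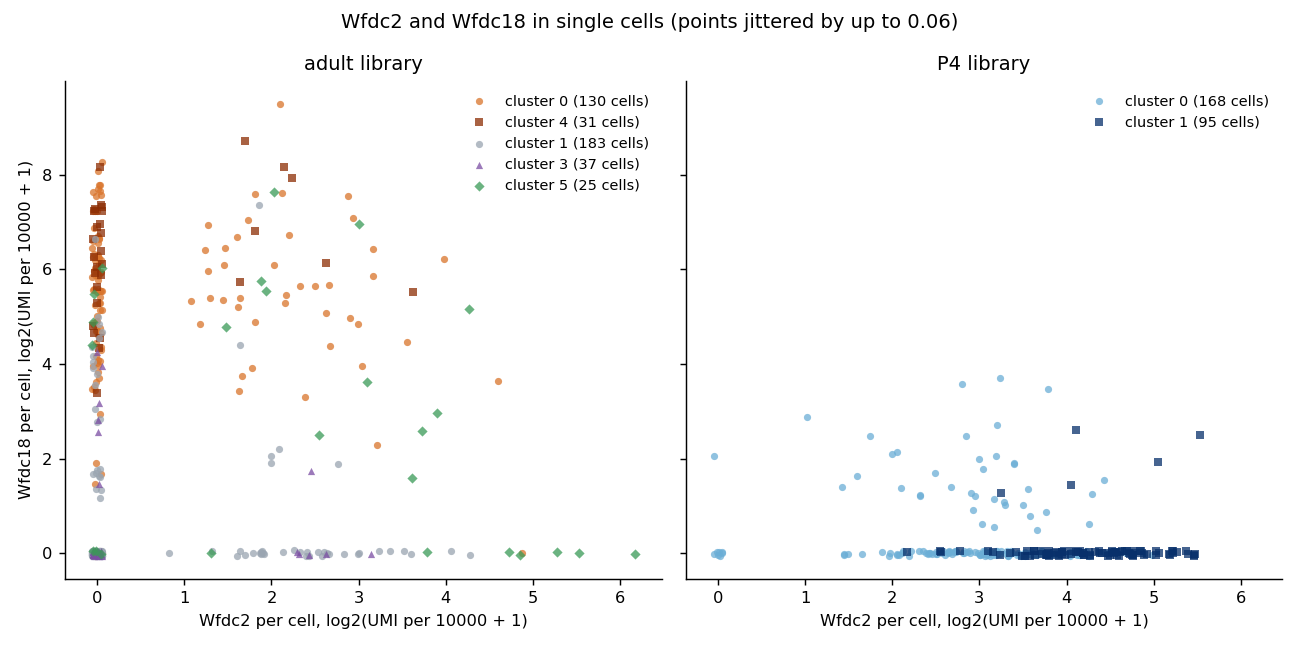
Each point is 1 cell, with Wfdc2 on the horizontal and Wfdc18 on the vertical axis, both as log2(UMI per 10000 + 1), for the adult library on the left and P4 on the right, coloured by cluster. Most cells of adult clusters 0 and 4 lie along the Wfdc18 axis and most P4 cells along the Wfdc2 axis, with some cells of adult clusters 0, 4 and 5 and of both P4 clusters carrying both genes.

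For each of 7 comparisons a fold was computed from pooled levels with 0.1 per 10000 added to both sides, and a gene was called at 2-fold or more if a UMI was present in at least 10% of cells on either side. The intervals given with a fold are exact 95% conditional intervals of the ratio without the added 0.1. Between ages, levels use the 26897 shared genes as the total. In each comparison 4 of the 6 genes passed the filter on low values and the other 2, Slpi and either Wfdc12 or Wfdc1, did not. A gene that passed only through the group in which it was high had to differ, so these counts support nothing further.

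P4 against adult, over all cells, had 1 of the 6 genes called higher and 2 called lower, where 10.4% of the 7283 genes that passed were called higher and 11.5% lower. Wfdc2 was 6.84-fold higher at P4, at 13.9 against 1.95 per 10000 [6.29 to 8.13]. Wfdc18 was 62.2-fold lower, at 0.5001 against 37.2 [60.6 to 92.5]. Wfdc1 was 5.20-fold lower, at 0.147 against 1.18 [5.35 to 12.6]. Wfdc15b was within 2-fold, at 1.65 against 2.38 and 1.41-fold lower [1.23 to 1.69], although its share of cells was higher at P4 (58.2% against 21.9%) at the greater depth there. After thinning that share was 12.5% at P4 and 11.8% in the adult. Wfdc12 and Slpi did not pass the filter, with 2 and 3 P4 UMI against 117 and 43 in the adult. The median log2 fold of the 4 genes was -1.44, against 0.09 over all genes that passed.

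Setting P4 cluster 1, the P4 cluster with more Ovgp1 (3.77 against 1.38 per 10000), against the adult secretory-like clusters 0 and 4 gave calls for the same genes in the same directions. Here 16.6% of 6631 genes were called higher and 7.96% lower, and of the 6 genes 1 was higher and 2 lower. Wfdc2 was 11.7-fold higher, at 22.5 against 1.83 [10.1 to 15.2]. Wfdc18 was 323-fold lower, at 0.139 (8 UMI) against 77.0 [281 to 1286]. Wfdc1 had 3 UMI against 142, a ratio between 16.2 and 237 in favour of the adult. Wfdc15b was at 1.32 against 1.38, with a P4-to-adult ratio between 0.686 and 1.32. These 2 comparisons use the same libraries and are not independent of each other.

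Within the P4 library, cluster 1 against cluster 0 had few differences of this size, with 1.41% of 8721 genes called higher and 1.38% lower, and 1 of the 6 genes in each direction. Wfdc2 was 2.26-fold higher in cluster 1 [2.10 to 2.46], and Wfdc18 was 3.06-fold lower [2.31 to 11.4] on 8 UMI against 84. Adding 0.5 in place of 0.1 per 10000 removed the Wfdc18 call. Wfdc1 was 1.82-fold and Wfdc15b 1.33-fold lower. Ovgp1 and Wfdc2 were thus both higher in P4 cluster 1, while Wfdc18, the main WAP gene of adult clusters 0 and 4, was lower there. The smooth muscle list summed to 5.31 and 4.27 per 10000 and the fibroblast list to 6.00 and 5.92 in P4 clusters 0 and 1, and their part in these values was not tested.

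In the adult, secretory-like cluster 0 against multiciliated-like cluster 1 had 2 of the 6 genes called higher and 0 lower, where 12.7% of 5494 genes were higher and 23.0% lower. Wfdc18 was 10.3-fold higher in cluster 0 [9.38 to 11.6] and Wfdc1 9.58-fold higher [7.72 to 31.3]. Wfdc15b (1.86-fold) and Wfdc2 (1.55-fold) were within 2-fold. The Wfdc18 level of cluster 1 rested on 5 cells, found after the values were seen, that held 353 of its 396 UMI. These cells had a median depth of 14252 UMI, Wfdc18 at 54.5, Ovgp1 at 24.4 and cilium genes at 46.1 per 10000, so they carried transcripts of both lists, and whether they are doublets was not tested. The other 178 cells had Wfdc18 at 0.815 per 10000, a UMI in 24 cells, and cilium genes at 160.7. Without the 5 cells the log2 fold of Wfdc18 between clusters 0 and 1 went from 3.36 to 6.25. Low shares of Wfdc18 in multiciliated-like cells are not read as expression, since free RNA in droplets was not measured.

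Secretory-like cluster 4 against cluster 0 had none of the 6 genes called, where 8.99% of 4474 genes were higher and 20.8% lower. Wfdc18 was 1.82-fold higher in cluster 4 [1.68 to 1.97], against 4.80-fold for Ovgp1, and Wfdc1 was at 2.45 against 2.48. Cluster 4 cells were shallow, with a median of 1185 UMI against 4107.5 in cluster 0, and the part of depth in this comparison was not tested.

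Multiciliated-like cluster 3 against multiciliated-like cluster 1 had 2 of the 6 genes called higher and 1 lower, where 11.7% of 5483 genes were higher and 9.06% lower. Wfdc12 was 49.9-fold higher in cluster 3 [44.8 to 338] on 112 UMI against 5, and Wfdc15b 21.2-fold higher [17.1 to 35.8] on 188 against 37. Without the cell with the most UMI of the gene on each side, the log2 fold of Wfdc12 was 4.67 in place of 5.64. Other lists differed between the same clusters: stress genes summed to 181.5 per 10000 in cluster 3 and 61.6 in cluster 1, secretory markers to 32.7 and 10.8, and macrophage genes to 2.68 and 0.152. Their part in the Wfdc12 and Wfdc15b values was not tested. Wfdc2 was at 1.14 against 1.13, with a ratio between 0.522 and 1.81. Wfdc18 was 6.32-fold lower in cluster 3 [3.88 to 13.4], but this rested on the 5 cells named above, and without them its log2 fold was 0.23, with cluster 3 the higher.

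Within cluster 3, Wfdc12 and Wfdc15b were often found in the same cells. Of the 16 cells with a Wfdc12 UMI, 12 also had Wfdc15b, against 5 of the 21 without Wfdc12. With cells thinned to 1000 UMI this was 7 of 7 against 5 of 22. None of the 17 cells with Wfdc15b had a Wfdc2 UMI, against 6 of the 20 cells without it. The cell with the most of both held 64 Wfdc12 and 61 Wfdc15b UMI of 8060, with 8 Foxj1 UMI, a master regulator of motile cilia, 94 Ovgp1 UMI, and 0 UMI of Wfdc2 and Wfdc18. The 21 cells with a UMI of either gene were compared with the 16 cells with neither. Their cilium genes were at 104.4 and 105.5 per 10000, Ovgp1 at 36.4 and 13.8, a list of stress genes at 118.5 and 239.1, a list of 8 macrophage genes at 4.59 and 0.932, and their median depths were 2092 and 4475 UMI. In cluster 3 as a whole 3 of the 8 macrophage genes were detected. The part of depth, stress and macrophage RNA in these values was not tested.

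**Figure D4:**
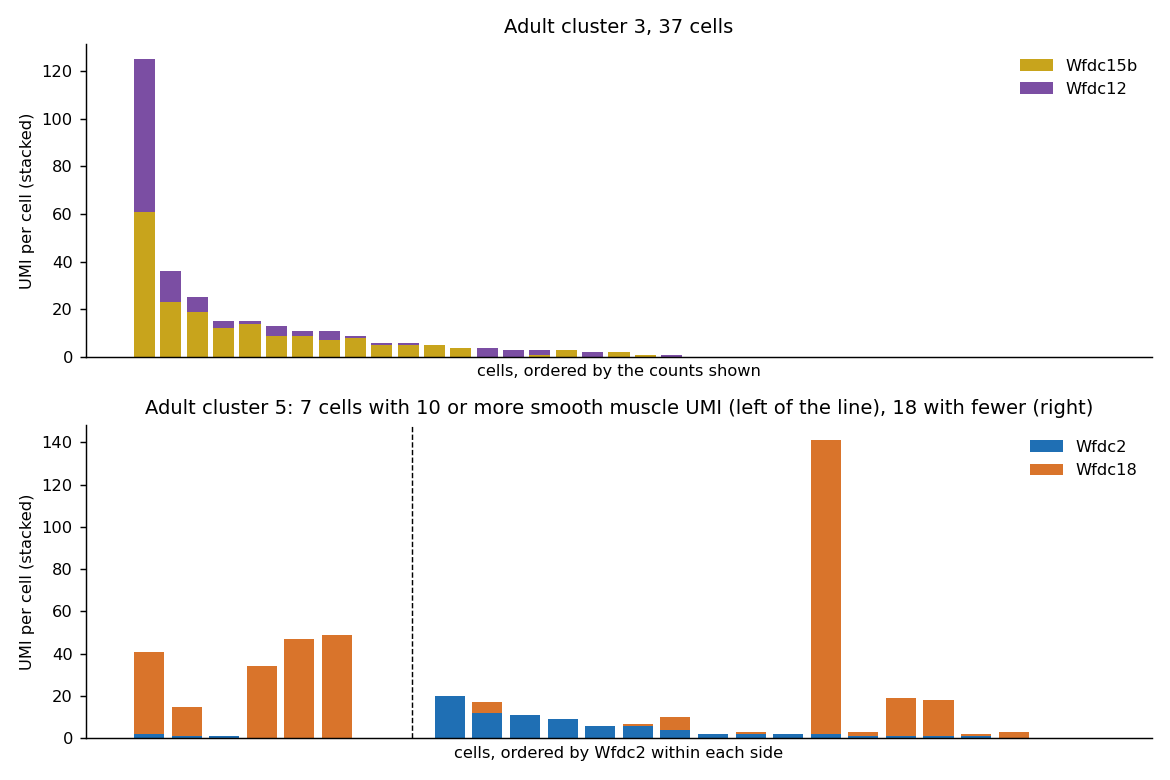
Each bar is 1 cell and its height the UMI of the 2 named genes stacked: Wfdc15b and Wfdc12 in the 37 cells of adult cluster 3 (top), Wfdc2 and Wfdc18 in the 25 cells of adult cluster 5 (bottom, cells with 10 or more smooth muscle UMI left of the dashed line). In cluster 3 the same few cells carry both genes, and in cluster 5 the 8 cells with 10 or more Wfdc18 UMI have at most 2 Wfdc2 UMI.

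Adult cluster 5 held the adult cells with the most Wfdc2. Its 18 cells low in smooth muscle UMI, set against cluster 0, had 1 of the 6 genes called higher and 1 lower, where 16.5% of 5355 genes were higher and 18.7% lower. Wfdc2 was 7.79-fold higher [5.98 to 11.1], at 14.8 against 1.81. Of its 80 UMI in these cells, 1 cell held 20. The 7 cells with 4 or more Wfdc2 UMI, set apart after the values were seen, held 68. The other 11 cells had 12 UMI, or 5.40 per 10000. Median depth was 1914.5 UMI in the 18 cells and 4107.5 in cluster 0, and the part of depth was not tested. Wfdc1 had 1 UMI against 127, a ratio between 2.36 and 533 in favour of cluster 0. Wfdc18 (1.95-fold lower) and Wfdc15b (higher, at 2.59 against 1.25) lay just inside the 2-fold limit. Among these 18 cells Wfdc2 led in 9 and Wfdc18 in 6, although Wfdc18 made up 66.8% of their summed UMI. Of the 10 cells with a Wfdc18 UMI, 9 also had Wfdc2, against 6 of the 8 without one. In these 18 cells, 3 cells held 174 of the 193 Wfdc18 UMI, 1 of them 139, and that cell also had 2 Wfdc2 UMI. The 7 cells high in smooth muscle UMI had 4 Wfdc2 UMI and 183 Wfdc18 UMI between them.

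**Figure D5:**
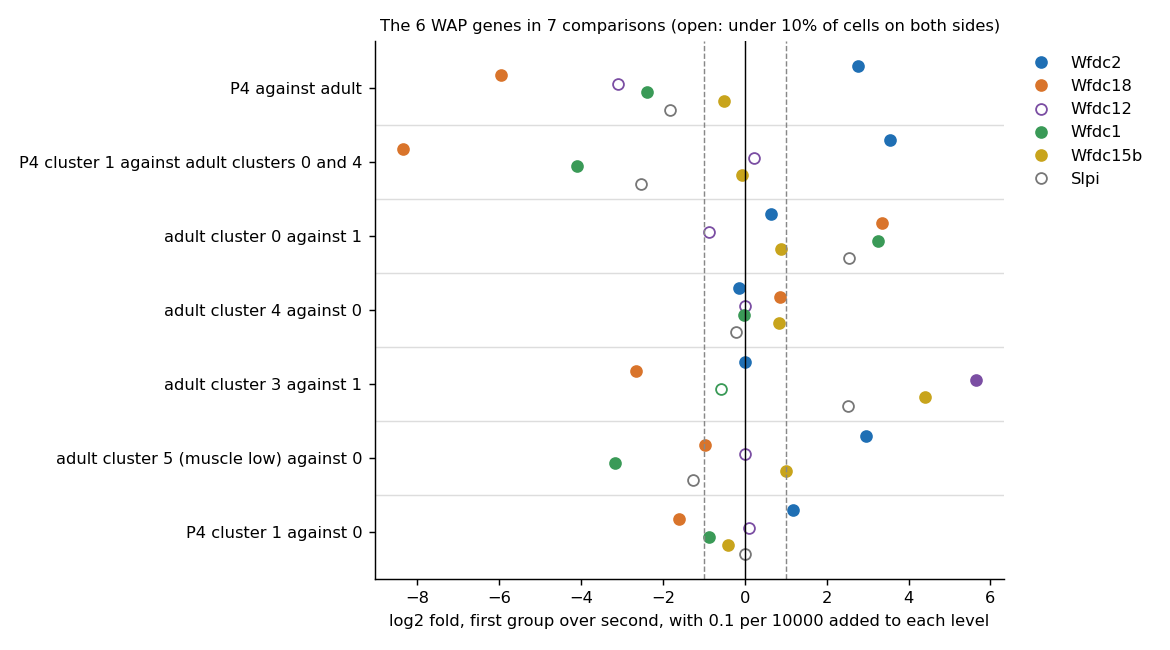
Each row is 1 comparison and each point 1 of the 6 genes, placed by its log2 fold (first group over second, 0.1 per 10000 added to each level), with dashed lines at 2-fold and open points where fewer than 10% of cells on both sides had a UMI. Wfdc18 and Wfdc2 lie on opposite sides of 0 in the rows that set P4 against adult, and Wfdc12 and Wfdc15b lie far to the right when adult cluster 3 is set against cluster 1.

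Other genes of the family had few UMI. Of 17 other genes with WAP domains, 16 had fewer than 10 UMI in each library, and 6 of these had 0 in both. Wfdc3 was the exception, with 39 adult UMI and 1 at P4, in 12% of the cells of adult cluster 5. Spint1 and Spint2 are membrane inhibitors with Kunitz domains in place of WAP domains. Of 5 Spint genes these 2 reached 10% of the cells of a cluster and the other 3 had 0 UMI. Spint2, which holds back matriptase and related proteases, was at 15.1, 13.2, 17.5, 28.6 and 10.8 per 10000 in adult clusters 0, 1, 3, 4 and 5, and at 6.36 and 7.47 in P4 clusters 0 and 1. Both Spint genes were within 2-fold between the ages on the totals of the shared genes. On the totals of all genes of each library, Spint2 was at 14.8 in adult cells and 6.71 at P4. Spint1 was called higher in the 18 cells of cluster 5 low in smooth muscle UMI than in cluster 0. It was at 1.85 per 10000 (10 UMI) against 0.741.

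A list of 38 proteases and partner genes was set beside the inhibitors. The leukocyte targets of Slpi were listed at 0: Elane (neutrophil elastase) and Ctsg (cathepsin G) had 0 UMI in both libraries. The cells had been sorted with Epcam and CD45 antibodies, so leukocyte proteases of the tissue cannot be judged from this. In all, 7 genes of the list had 0 UMI in both libraries, while 23 reached 10% of the cells of a cluster. Between the ages 2 were called higher at P4, 3 lower, 12 within 2-fold and 21 did not pass the filter, with a median log2 fold of 0.22 against 0.09 over all genes. Over all genes that passed, 10.4% were higher and 11.5% lower, so the list is not set apart by these counts. The 2 higher genes were the kallikreins Klk8, with 45 UMI against 0 (at least 11.2-fold, taking 3 counts over the group as the floor), and Klk10, with 56 against 3, a ratio between 4.54 and 69.8. The 3 lower genes were Adam8, a membrane metalloprotease (8.50-fold), Klk11 (at 0.147 against 0.639) and Anxa2, which binds plasminogen activator at the cell surface (2.01-fold).

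Between adult clusters 0 and 1, 5 genes of the list were higher, 3 lower, 5 within 2-fold and 25 did not pass the filter, where 12.7% of all genes that passed were higher and 23.0% lower. Plat, tissue plasminogen activator, was at 4.33 and 9.98 per 10000 in secretory-like clusters 0 and 4 and 0.506 in cluster 1, a 7.30-fold difference between clusters 0 and 1 [5.82 to 13.0]. Adam8 was at 3.70 and 3.98 in multiciliated-like clusters 1 and 3 and had 3 UMI in cluster 0. Cluster 3 against 1 had 4 genes of the list higher, 1 lower, 9 within 2-fold and 24 that did not pass, where 11.7% of all genes were higher and 9.06% lower. Of the 4, Tmprss4, a membrane serine protease, was at 0.974 against 0.118 [2.99 to 24.7]. Cluster 5 low in smooth muscle UMI against cluster 0 had 5 higher and 4 lower of 14 that passed, where 16.5% of all genes were higher and 18.7% lower. Its 18 cells had Grn (progranulin, a partner that Slpi shields from elastase) at 5.18 against 0.877 in cluster 0, 5.40-fold higher [3.55 to 9.67]. They also had 7 UMI of Mmp7, a matrix metalloprotease, against 0, at least 22.1-fold. Of the other 7 genes called, 5 had fewer than 5 UMI in the 18 cells.

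For each gene, the genes with the most similar pattern over the 7 clusters were found by the Pearson correlation of log2(level + 0.1) among 7245 genes with at least 20 UMI and a UMI in at least 10% of the cells of a cluster. These correlations describe 7 clusters that share 2 libraries and their depths. For Wfdc2 they were Msantd3 (r = 0.990), Snx8 (0.983), the tight junction claudin Cldn1 (0.982) and Dclk1 (0.976). Of these, Msantd3, Cldn1 and Dclk1 were at 0 in adult clusters 1, 3 and 4, so their values rest on few UMI in the adult. For Wfdc18 they were Sptssa (0.980), Enho (0.976), Emb (0.973) and Tmem205 (0.972). Wfdc1 had AW551984 (0.990), Lcn2, a secreted iron-scavenging defence protein (0.986), Rnase1 (0.983) and Olfml3 (0.981). Wfdc12 had Efhd1 (0.987), Ibtk (0.965) and Vps26b (0.964). Wfdc12 itself had 112 UMI in adult cluster 3 and 0 to 5 in each of the others, so these values rest mostly on cluster 3. Wfdc15b had the actin-severing protein Gsn at 0.981 and Pef1, Rab10os and Cars2 between 0.921 and 0.938. Slpi did not meet the filter.

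Promoters are shown for Wfdc18, the gene that separates the adult secretory-like clusters, and for Wfdc12 and Wfdc15b, which were high together in adult cluster 3. The bases come from RefSeq promoter entries on GRCm38.p6 (5 of the 6 genes matched) and are the part upstream of the gene's own exons, read 5′ to 3′ toward the start: Wfdc18 chr11:83708754-83709003 (plus strand), Wfdc12 chr2:164190609-164190808 (minus) and Wfdc15b chr2:164221664-164221913 (minus). Capitals mark motif matches.
Wfdc18 promoter: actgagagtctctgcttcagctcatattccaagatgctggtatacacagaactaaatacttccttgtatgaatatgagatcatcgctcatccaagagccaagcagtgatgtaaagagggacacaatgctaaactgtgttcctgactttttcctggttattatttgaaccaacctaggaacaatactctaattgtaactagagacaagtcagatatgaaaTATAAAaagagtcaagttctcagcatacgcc
Wfdc12 promoter: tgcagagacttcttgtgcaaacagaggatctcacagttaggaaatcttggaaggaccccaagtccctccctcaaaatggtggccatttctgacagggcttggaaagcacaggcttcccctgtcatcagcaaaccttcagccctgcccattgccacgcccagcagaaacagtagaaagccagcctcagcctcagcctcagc
Wfdc15b promoter: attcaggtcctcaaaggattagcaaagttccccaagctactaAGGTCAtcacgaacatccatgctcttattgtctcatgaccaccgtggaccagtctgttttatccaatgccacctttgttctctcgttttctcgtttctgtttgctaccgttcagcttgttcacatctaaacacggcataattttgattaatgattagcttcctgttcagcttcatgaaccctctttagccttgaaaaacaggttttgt
Both strands of the 250 bases before each start were searched for 4 motifs. The TATA box was searched as TATAAA, which 12.4% of 32851 promoter windows of this length held. The repeat unit of nuclear receptor sites, such as those for estrogen receptors, was searched as AGGTCA and was in 14.02% of the windows. The AP-1 site was searched as TGANTCA and was in 6.75% of the windows, and the forkhead site as TGTTTAC, in 3.17%. No 2 of these motifs share a match in the bases printed here. Wfdc18 had a TATA box, with its first base at -31 from the start, and Wfdc15b had the nuclear receptor unit at -208. Wfdc2 has 2 RefSeq starts, with nearly identical windows (chr2:164562465-164562714 and chr2:164562466-164562715). No base of either lies upstream of the gene's own exons. The nuclear receptor unit was found at -6, at the very end of the second window, and the end of the first window cuts it. This is no difference between 2 promoters, and none of the other motifs was found in either window. Wfdc12 and Slpi had none of the 4 in this window. A match is only a run of letters, and no binding was measured.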

How the data were processed

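Raw UMI counts per gene and cell were deposited by the authors as 3 tables (adult, P4 and both merged), with a cluster for each cell. Per the submitters' processing notes, reads were processed with Cell Ranger (no version stated) and Seurat 2.3.4 on mm10. The cluster numbers were used as the authors deposited them, and the merged clusters only as another grouping. The adult table had 807 columns under 2 prefixes for 406 distinct barcodes. Of these, 401 were repeated, 399 of them in the same cluster, and 262 repeats had the same counts of all 6 genes. Each barcode was counted 1 time, from the first prefix. The ages shared 0 barcodes.

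No cell was removed and no doublet caller was run. Genes found in 1 table only held 1.79% of adult and 13.4% of P4 UMI and were left out of the totals in comparisons between ages. Counts were pooled per cluster and scaled to 10000, with a pseudocount of 0.1 for folds. Intervals are exact Poisson, binomial or conditional (95%), and cover counting error only. UMI counts below 3 are under the floor used for bounds. With 1 library per age and members chosen on these values, no test was run. Thinning drew 1000 UMI per cell with a fixed seed. The computation was checked on simulated counts. Core sequences, protein lengths and identities were computed from GENCODE M21 gene models on GRCm38, whose chromosome names and gene symbols match the mm10 tables, and promoters from RefSeq.

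All 6 genes are named with their values. Of the other lists, genes with a UMI in at least 10% of the cells of a cluster could be named, with Ovgp1, Foxj1 and Epcam always. For likeness, the 4 genes with the highest correlation were named, apart from 1 that is not reported here. The genes of the lists at 0 or few UMI that are named (Elane, Ctsg) were chosen after their values were seen. The members, lists, comparisons and the limit of 10 smooth muscle UMI were chosen with earlier results of these data known. Alternatives changed the averaging, pseudocount, filter, depth, barcode prefix, cells and totals. Software was Python 3.11.15 with numpy 2.4.6, pandas 2.3.3, scipy 1.17.1 and matplotlib 3.10.9.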

Additional observations from a re-analysis of the deposited data

How the results depend on the processing

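Of 144 recomputed counts of called genes, 121 stayed within 1.5 times of the reported count and 23 did not. Of 432 recomputed folds of single genes, 361 lay inside the counting interval of the ratio or within a fixed small distance of the reported log2 fold. Of the others, 68 lay outside both limits and 3 reversed. Wfdc2 kept a log2 fold between 2.56 and 2.96 for P4 against adult, and Wfdc18 one between -5.24 and -6.17, under all alternatives that could be computed. Wfdc15b in adult cluster 3 against 1 stayed between 3.81 and 4.76.

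The counts that moved were of 0 to 4 genes, and the cause was not tested. For P4 against adult, 4 genes were lower with no filter, 1 with a filter of 25% and 1 after thinning to 1000 UMI. For adult cluster 4 against 0, 1 gene was higher when every cell weighed alike. For cluster 3 against 1, 0 genes were lower when every cell weighed alike, with a filter of 25%, after thinning, without cells with 2 or more non-epithelial markers, and without the 5 cells of cluster 1 with 10 or more Wfdc18 UMI (an alternative chosen after seeing the data). For cluster 5 low in smooth muscle UMI against 0, 2 genes were lower when every cell weighed alike, with no filter, after thinning, without cells with non-epithelial markers and without the cell with most UMI of the gene. There, 2 were higher after thinning, without the 5% of cells with the most UMI, and with totals that leave out WAP, ribosomal and mitochondrial genes. For P4 cluster 1 against 0, 0 genes were lower with a pseudocount of 0.5, a filter of 25% or thinning, and 2 when every cell weighed alike, without the 5% deepest cells and with the reduced totals.

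Reversals were Slpi in cluster 5 against 0 after thinning (log2 fold 1.55) and Wfdc18 in cluster 3 against 1 without cells with non-epithelial markers (0.14) and without the 5 cells (0.23). The Wfdc18 share of the summed UMI was 92.9% in adult cluster 0 after thinning. In cluster 1 it was 55.4% when every cell weighed alike, 63.8% after thinning, 70.0% without the top cell and 29.9% without the 5 cells. In cluster 5 it was 64.3%, 68.1% and 67.7% under the first 3 of these, and in its 18 cells low in smooth muscle UMI 57.2% when every cell weighed alike and 37.8% without the top cell. The Wfdc15b share in cluster 3 was 62.8% when every cell weighed alike. Removing cells with 2 or more non-epithelial markers left 6 of 263 P4 cells, so the comparisons with P4 were not run under it. No paired analysis was possible because each age has 1 library.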

Other observations

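Of the 6 genes, 4 lie in a stretch of chromosome 2 (chr2:164176327-164745931 on GRCm38, 569.6 kb) with 33 protein-coding genes, 16 of them with WAP domains. Of those 16, 4 had a UMI in at least 10% of the cells of some cluster: Wfdc12, Wfdc15b, Wfdc2 and Wfdc3. Of the 17 other genes of the stretch, 4 did: Sdc4, Sys1, Dbndd2 and Pigt. Wfdc12 and Wfdc15b, which were high together in adult cluster 3, are 23.8 kb apart, and Wfdc15a, which lies between them, had 0 UMI in both libraries. The seminal vesicle genes Svs2, Svs3a, Svs3b, Svs4 and Svs6 of the same stretch had 0 UMI in both libraries. Sdc4, a cell surface proteoglycan upstream of Wfdc2, was at 3.20 per 10000 in adult cells and 8.54 at P4. Sys1, Dbndd2 and Pigt, which lie between Sdc4 and Wfdc2, had no such rise. They were at 2.50, 0.499 and 1.71 per 10000 in adult cells and at 1.34, 0.565 and 1.31 at P4. The levels of these 4 genes use the totals of all genes of each library, not of the shared genes.

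In the authors' clustering of the merged table, most adult cells of cluster 1 stayed together and those of cluster 3 were split. Merged cluster 0 took 178 adult cells of cluster 1 and 17 of cluster 3, and had Wfdc12 at 0.519 and Wfdc15b at 1.90 per 10000. Merged cluster 6 took 19 of the 37 cells of cluster 3 among its 21 adult cells. It had Wfdc12 at 8.54 and Wfdc15b at 10.5. These levels rest largely on 1 cell with 64 Wfdc12 and 61 Wfdc15b UMI, of 86 and 106 in these cells. A Wfdc12 UMI was in 28.6% of the 21 cells and in 7.11% of the 197 adult cells of merged cluster 0. For Wfdc15b these shares were 23.8% and 15.7%. Adult cells of merged clusters 2 and 4 (98 and 84 cells) had Wfdc18 at 69.2 and 71.7 per 10000. Of the P4 cells, 225 were in merged cluster 1, with Wfdc2 at 12.6, and 14 in merged cluster 0, with Wfdc2 at 9.03. All 6228 values of the 6 genes that could be compared were the same in the merged and the separate tables.

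In adult cells over all clusters, Wfdc1 was present in 67 of the 203 cells with a Wfdc18 UMI and in 7 of the 203 without one. These groups differ in cluster. Clusters 0 and 4 held 152 of the cells with Wfdc18, and cluster 1 held 154 of those without it. Within cluster 0, Wfdc1 was present in 52 of 122 cells with Wfdc18 and in 1 of 8 without it. After thinning, this was 18 of 99 against 1 of 13. Whether these genes go together within a cluster was not tested.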
